A study of Mus musculus with 6 samples.

Results

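The 47 genes described here encode the limiting membrane of the lysosome, its proton pump, its soluble acid hydrolases and their cofactors, and the TFEB family of transcription factors. They were chosen by name: every probe set that carried exactly 1 gene symbol and whose symbol stood on the list was taken. This gave 47 of the 19938 genes tested, on 50 of the 21789 probe sets with a single symbol. By role they comprise 7 membrane proteins, 4 ion channels, 14 subunits or accessory proteins of the V-ATPase, 3 TFEB family members and 19 hydrolases or cofactors.

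RNA of sorted conventional dendritic cells (cDC) from wild-type mouse spleen was hybridised to 6 Affymetrix arrays. There were 2 arrays each of CD24+CD172a+ cDC2, of CD24-CD172a+ cDC2 and of CD24+ cDC1. The labels give no age, strain, treatment or pooling, and the submitters' text spells the CD172a of the first population "CD17a". Nothing in them states that replicate arrays came from separate animals, so p-values measure the spread between arrays, which may be technical. Levels are log2 of the deposited RMA intensities. A difference is the log2 difference fitted by limma over all 19938 genes, and a gene is called where its Benjamini-Hochberg adjusted p is under 0.05. Levels of different probe sets are not set against each other, because each probe set has its own brightness.

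Lysosomes break down material taken up from outside the cell or delivered by autophagy. The V-ATPase pumps protons into the lumen, the hydrolases work at the resulting acid pH, and heavily glycosylated membrane proteins line the inner face. In dendritic cells the same compartment cuts antigens into peptides for MHC molecules and its acidity is held in check, so that cDC1, known for cross-presentation to CD8 T cells, and cDC2, known for presentation to CD4 T cells, are often compared for it. TFEB, TFE3 and MITF bind an E-box, the core of the CLEAR element found upstream of many lysosomal genes.

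The sort markers followed the gates. Cd24a, which encodes CD24, averaged 10.88 in CD24+CD172a+ cDC2, 8.83 in CD24-CD172a+ cDC2 and 11.74 in cDC1, and Sirpa, which encodes CD172a, averaged 10.14, 10.19 and 5.18 in the same order. Summed linear intensity of 10 cDC1 markers was 711 to 864 in CD24+CD172a+ cDC2, 752 to 777 in CD24-CD172a+ cDC2 and 11231 to 12271 in cDC1. That of 10 cDC2 markers was 2614 to 2937, 3351 to 3649 and 272 to 278 in the same order. Replicate arrays correlated at 0.992 to 0.993 over all genes, and array medians were 29.5 to 30.6 in linear intensity. As the samples are bulk, fewer cells of a type with a transcript and less of it per cell cannot be told apart.

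The promoter letters that the TFEB family reads are shown first, since 4 of the 9 genes that were higher in a cDC2 population, and 8 genes that were not called against cDC1, carry them. RefSeq windows of assembly GRCm38.p6, each running from 250 bases before to 50 bases after an annotated start, were found for 39 of the 47 genes. No window was matched for Asah1, Atp6v0a2, Atp6v0d2, Atp6v1b2, Atp6v1c1, Atp6v1h, Laptm4b and Tpcn1. The stretches below come from 3 genes of the hydrolase and cofactor group that were called higher in both cDC2 populations than in cDC1 (Gla, Lgmn and Ifi30). The other 4 are genes of the membrane, channel and pump groups that were not called in any comparison. Capitals mark each CACGTG, letters run 5′ to 3′ on the strand of the gene, and positions count from the annotated start.
Gla, chrX:134601174-134601252, minus strand, -247 to -169: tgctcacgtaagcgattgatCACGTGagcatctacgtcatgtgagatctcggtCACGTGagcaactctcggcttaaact
Lgmn, chr12:102439116-102439161, minus strand, -69 to -24: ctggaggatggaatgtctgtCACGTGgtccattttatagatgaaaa
Ifi30, chr8:70766834-70766879, minus strand, -216 to -171: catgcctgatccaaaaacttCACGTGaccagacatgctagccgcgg
Lamp1, chr8:13159080-13159160, plus strand, -81 to -1: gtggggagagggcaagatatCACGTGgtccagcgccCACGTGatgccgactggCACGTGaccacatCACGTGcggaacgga
Mcoln1, chr8:3500428-3500499, plus strand, -91 to -20: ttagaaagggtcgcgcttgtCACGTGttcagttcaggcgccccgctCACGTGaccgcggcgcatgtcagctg
Atp6v0b, chr4:117887330-117887385, minus strand, -56 to -1: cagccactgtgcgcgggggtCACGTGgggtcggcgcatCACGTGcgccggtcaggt
Atp6v1a, chr16:44139365-44139410, minus strand, -151 to -106: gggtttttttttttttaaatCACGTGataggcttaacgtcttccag

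The core CACGTG, which reads the same on both strands, stood in a window of 13 of the 39 genes (33.3%), against 1483 of the 15614 tested genes with a window (9.5%) and 2187 of all 27025 genes with one (8.09%). The longer TCACGTGA, which contains the core and is therefore counted within it, stood in 6 of the 39 (15.4%), against 238 of 15614 (1.52%) and 304 of 27025 (1.12%). Lamp1 had 4 cores, at -61, -45, -28 and -15, and Gla, Mcoln1 and Atp6v0b had 2 each. Both cores of Gla were the longer form.

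Genes with the core were found in every class of array result. It stood in 4 of the 9 genes called higher in a cDC2 population than in cDC1 (Gla, Lgmn, Ifi30 and Atp6v0d1), in 1 of the 10 called lower that had a window (Atp6v0e), and in 8 of the 20 that were not called against cDC1. These are counts of letters in a window, not of bound sites.

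**Figure D1:**
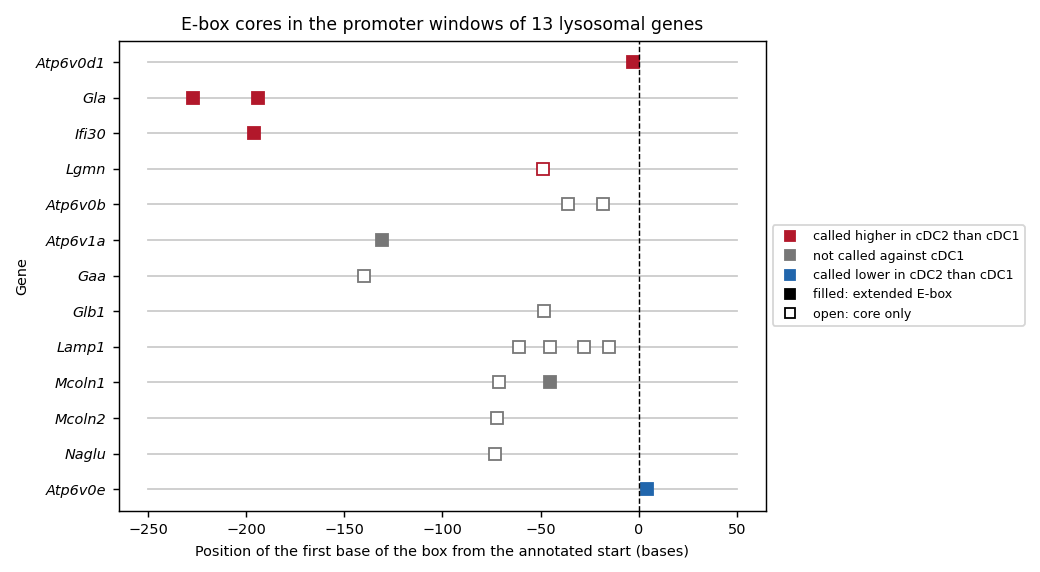
Position of each CACGTG core, in bases from the annotated start (dashed line at 0), along the promoter windows of the 13 genes that hold one; filled squares are the longer TCACGTGA and open squares the core alone, and colour gives the call against cDC1. Gla has 2 filled squares and Lamp1 has 4 open ones, and 8 of the 13 genes are grey, which means not called against cDC1.

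Atp6v0d2, the d subunit isoform known from osteoclasts and macrophages, was the 1 gene of the 47 with a mean over the 6 arrays below 3.93, the 25th percentile of all values, at 3.17 and 3.28 in CD24+CD172a+ cDC2, at 3.31 and 3.21 in CD24-CD172a+ cDC2, and at 3.44 and 2.90 in cDC1. The median SD between replicate arrays was 0.13 for these genes and 0.14 for all genes.

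Against cDC1 the group divided. In CD24+CD172a+ cDC2, 4 of the 47 genes were called higher and 13 lower than in cDC1, which is 36.2% of them. Over all genes 13.6% were called in this comparison, 7.11% higher and 6.52% lower, and among genes brighter than the median gene 23.7%. In CD24-CD172a+ cDC2, 9 were called higher and 12 lower, which is 44.7%, beside 15.7% of all genes (6.83% higher and 8.91% lower) and 27.4% of the genes brighter than the median. The 9 higher calls became 2 without cDC1 array 1, 3 without cDC1 array 2 and 3 without CD24-CD172a+ cDC2 array 2. The median difference of the 47 genes was -0.13 for CD24+CD172a+ cDC2 minus cDC1 (all genes -0.03) and 0.04 for CD24-CD172a+ cDC2 minus cDC1 (all genes 0.00). Both comparisons use the same 2 cDC1 arrays.

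The arrays of the 2 populations did not overlap for 31 of 47 genes between CD24+CD172a+ cDC2 and cDC1 (10 higher, 21 lower), beside 52% of all genes. They did not overlap for 35 of 47 between CD24-CD172a+ cDC2 and cDC1 (17 higher, 18 lower), beside 52.4% of all genes.

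**Figure D2:**
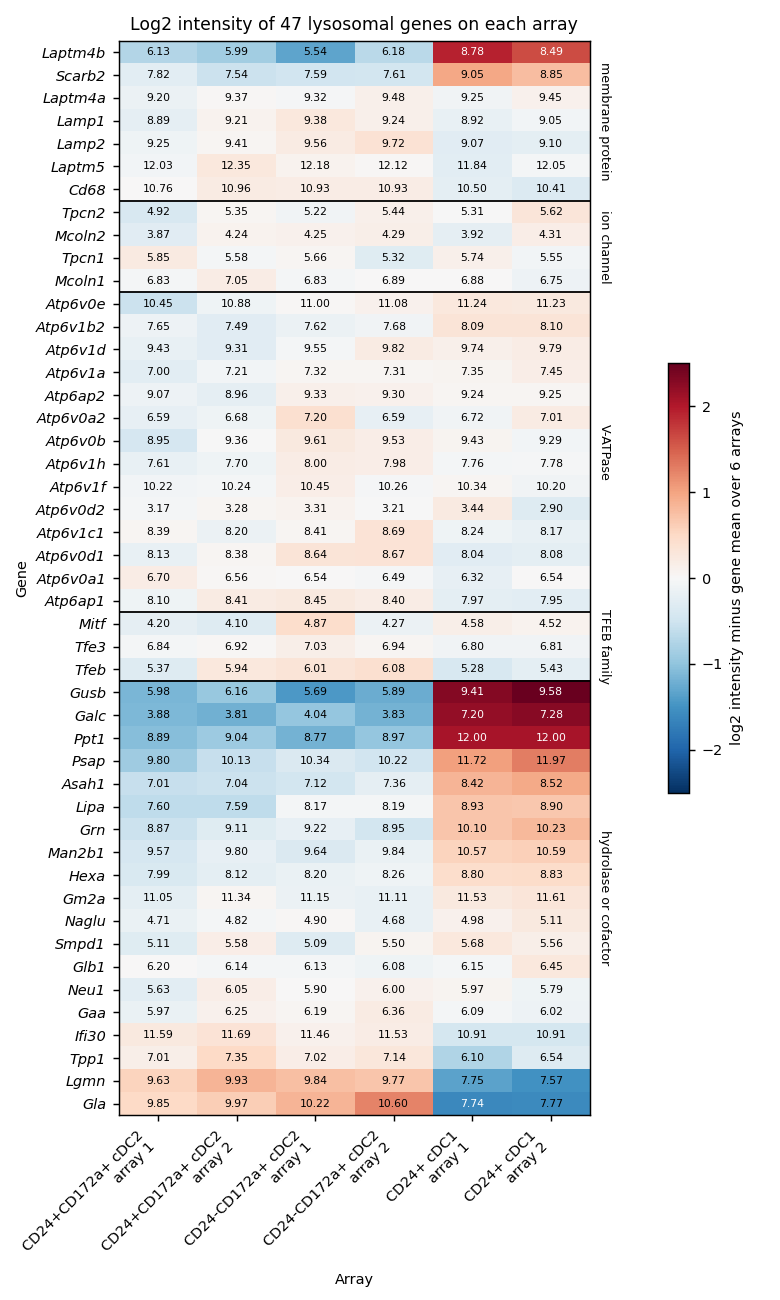
Log2 intensity of the 47 genes (rows, in blocks by role) on each of the 6 arrays (columns), written in each cell; colour is the level minus the mean of that gene over the 6 arrays. The strongest colours belong to hydrolases and to Laptm4b: Gusb, Galc and Ppt1 are red in both cDC1 columns, and Gla and Lgmn are blue there.

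Among the membrane proteins, Laptm4b and Scarb2 stood apart. Laptm4b, a multi-pass protein of late endosomes and lysosomes, was at 6.13 and 5.99 in CD24+CD172a+ cDC2 and at 5.54 and 6.18 in CD24-CD172a+ cDC2, against 8.78 and 8.49 in cDC1. Every cDC1 array was far above every cDC2 array. The difference from cDC1 was -2.58 ± 0.20 (SE, n = 2 arrays each; limma adjusted p 8.27e-06) for CD24+CD172a+ cDC2 and -2.78 ± 0.20 (adjusted p 4.68e-06) for CD24-CD172a+ cDC2.

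Scarb2, also called LIMP-2, carries glucocerebrosidase to the lysosome. It was at 7.82 and 7.54 in CD24+CD172a+ cDC2 and at 7.59 and 7.61 in CD24-CD172a+ cDC2, against 9.05 and 8.85 in cDC1. The difference from cDC1 was -1.27 ± 0.14 (adjusted p 0.000143) for CD24+CD172a+ cDC2 and -1.35 ± 0.14 (adjusted p 9.49e-05) for CD24-CD172a+ cDC2, with no overlap of the arrays in either comparison.

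The major membrane glycoproteins went the other way or did not pass the test. Lamp2, which is also the receptor of chaperone-mediated autophagy in one of its isoforms, was at 9.25 and 9.41 in CD24+CD172a+ cDC2 and at 9.56 and 9.72 in CD24-CD172a+ cDC2, against 9.07 and 9.10 in cDC1. Both cDC2 populations lay above cDC1 on every array, and the higher level was called for CD24-CD172a+ cDC2 alone (0.56 ± 0.13, adjusted p 0.0157, against 0.24 ± 0.13, adjusted p 0.314, for CD24+CD172a+ cDC2). The difference between the cDC2 populations was -0.31 ± 0.13 (adjusted p 0.327), so Lamp2 is not shown to differ between them. Without CD24-CD172a+ cDC2 array 2, or without either cDC1 array, the Lamp2 call was lost.

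Cd68, a mucin-like glycoprotein of macrophage and dendritic cell endosomes, was at 10.76 and 10.96 in CD24+CD172a+ cDC2 and 10.93 on both arrays of CD24-CD172a+ cDC2, against 10.50 and 10.41 in cDC1. The difference was 0.40 ± 0.13 (adjusted p 0.0751) for CD24+CD172a+ cDC2 and 0.47 ± 0.13 (adjusted p 0.033) for CD24-CD172a+ cDC2. All 4 cDC2 arrays were above both cDC1 arrays, and the call was lost when any 1 of the 4 arrays compared was left out. Lamp1, the companion of Lamp2 with similar structure, was at 8.89 and 9.21 in CD24+CD172a+ cDC2, at 9.38 and 9.24 in CD24-CD172a+ cDC2, and at 8.92 and 9.05 in cDC1, and was not called (adjusted p 0.87 and 0.188 against cDC1). Laptm4a and Laptm5, relatives of Laptm4b of which Laptm5 is restricted to blood cells, were not called either, with differences from cDC1 between -0.06 and 0.25.

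None of the ion channels was called in any comparison by limma, and 0 of the 4 had an unadjusted p under 0.05. They are Mcoln1 and Mcoln2, cation channels of the TRPML family that release calcium from the lysosome, and Tpcn1 and Tpcn2, sodium and calcium channels of the same membrane. Their differences from cDC1 ran from -0.33 (Tpcn2, CD24+CD172a+ cDC2, unadjusted p 0.091) to 0.16 (Mcoln2, CD24-CD172a+ cDC2). Mcoln1 was within 6.83 to 7.05 on the 4 cDC2 arrays, against 6.88 and 6.75 in cDC1. A p that misses the threshold with 2 arrays a population does not show equal levels.

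The proton pump showed small differences. Of its 14 genes, 0 were called higher and 2 lower by limma in CD24+CD172a+ cDC2 than in cDC1 (median difference -0.16; 3 had an unadjusted p under 0.05, all lower), and 2 higher and 1 lower in CD24-CD172a+ cDC2 (median 0.09). These are 14.3% and 21.4% of the pump genes, near the 13.6% and 15.7% of all genes and below the 23.7% and 27.4% of genes brighter than the median. Atp6v1b2, the B subunit of the catalytic V1 sector in most tissues, was the 1 pump gene called in both. It was at 7.65 and 7.49 in CD24+CD172a+ cDC2 and at 7.62 and 7.68 in CD24-CD172a+ cDC2, against 8.09 and 8.10 in cDC1. The differences were -0.52 ± 0.13 (adjusted p 0.0203) and -0.44 ± 0.13 (adjusted p 0.0401). Without either cDC1 array neither call held, the first was also lost without CD24+CD172a+ cDC2 array 2, and the second without any 1 of the 6 arrays and after cyclic loess or quantile normalisation.

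Atp6v0e, a small subunit of the membrane V0 sector, was at 10.45 and 10.88 in CD24+CD172a+ cDC2, at 11.00 and 11.08 in CD24-CD172a+ cDC2, and at 11.24 and 11.23 in cDC1. The populations stood in that order without overlap, and CD24+CD172a+ cDC2 was called lower than cDC1 (-0.57 ± 0.16, adjusted p 0.0342). That call was lost without CD24+CD172a+ cDC2 array 1 or either cDC1 array. For CD24-CD172a+ cDC2 the difference from cDC1 was -0.19 ± 0.16 (adjusted p 0.514).

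Atp6v0d1, the widely used d subunit of V0, and Atp6ap1, an accessory protein that helps assemble it, were the pump genes called higher in CD24-CD172a+ cDC2. Atp6v0d1 was at 8.13 and 8.38 in CD24+CD172a+ cDC2 and 8.64 and 8.67 in CD24-CD172a+ cDC2, against 8.04 and 8.08 in cDC1 (0.59 ± 0.13 for CD24-CD172a+ cDC2 minus cDC1, adjusted p 0.012). Atp6ap1 was at 8.10 and 8.41 in CD24+CD172a+ cDC2 and 8.45 and 8.40 in CD24-CD172a+ cDC2, against 7.97 and 7.95 in cDC1 (0.47 ± 0.14, adjusted p 0.048). For both genes the 4 cDC2 arrays all exceeded the cDC1 arrays. Atp6ap1 lost its call without any 1 of the 4 arrays compared, and Atp6v0d1 without CD24-CD172a+ cDC2 array 2 or either cDC1 array.

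The other pump genes are Atp6ap2 (the prorenin receptor), the V0 subunits Atp6v0a1, Atp6v0a2, Atp6v0b and Atp6v0d2, and the V1 subunits Atp6v1a, Atp6v1c1, Atp6v1d, Atp6v1f and Atp6v1h. Their differences from cDC1 ran from -0.39 (Atp6v1d, CD24+CD172a+ cDC2, adjusted p 0.0993) to 0.34 (Atp6v1c1, CD24-CD172a+ cDC2, adjusted p 0.156). Atp6v0a2 is uncertain, because its 2 probe sets disagreed. The brighter, used here, gave -0.23 and 0.03 for CD24+CD172a+ and CD24-CD172a+ cDC2 minus cDC1. On the dimmer one, all 4 cDC2 arrays lay between 6.08 and 6.47, against 7.45 and 7.61 in cDC1. Tested with all probe sets, that one was called lower in both cDC2 populations (-1.20, adjusted p 0.000336, and -1.42, adjusted p 0.000112).

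**Figure D3:**
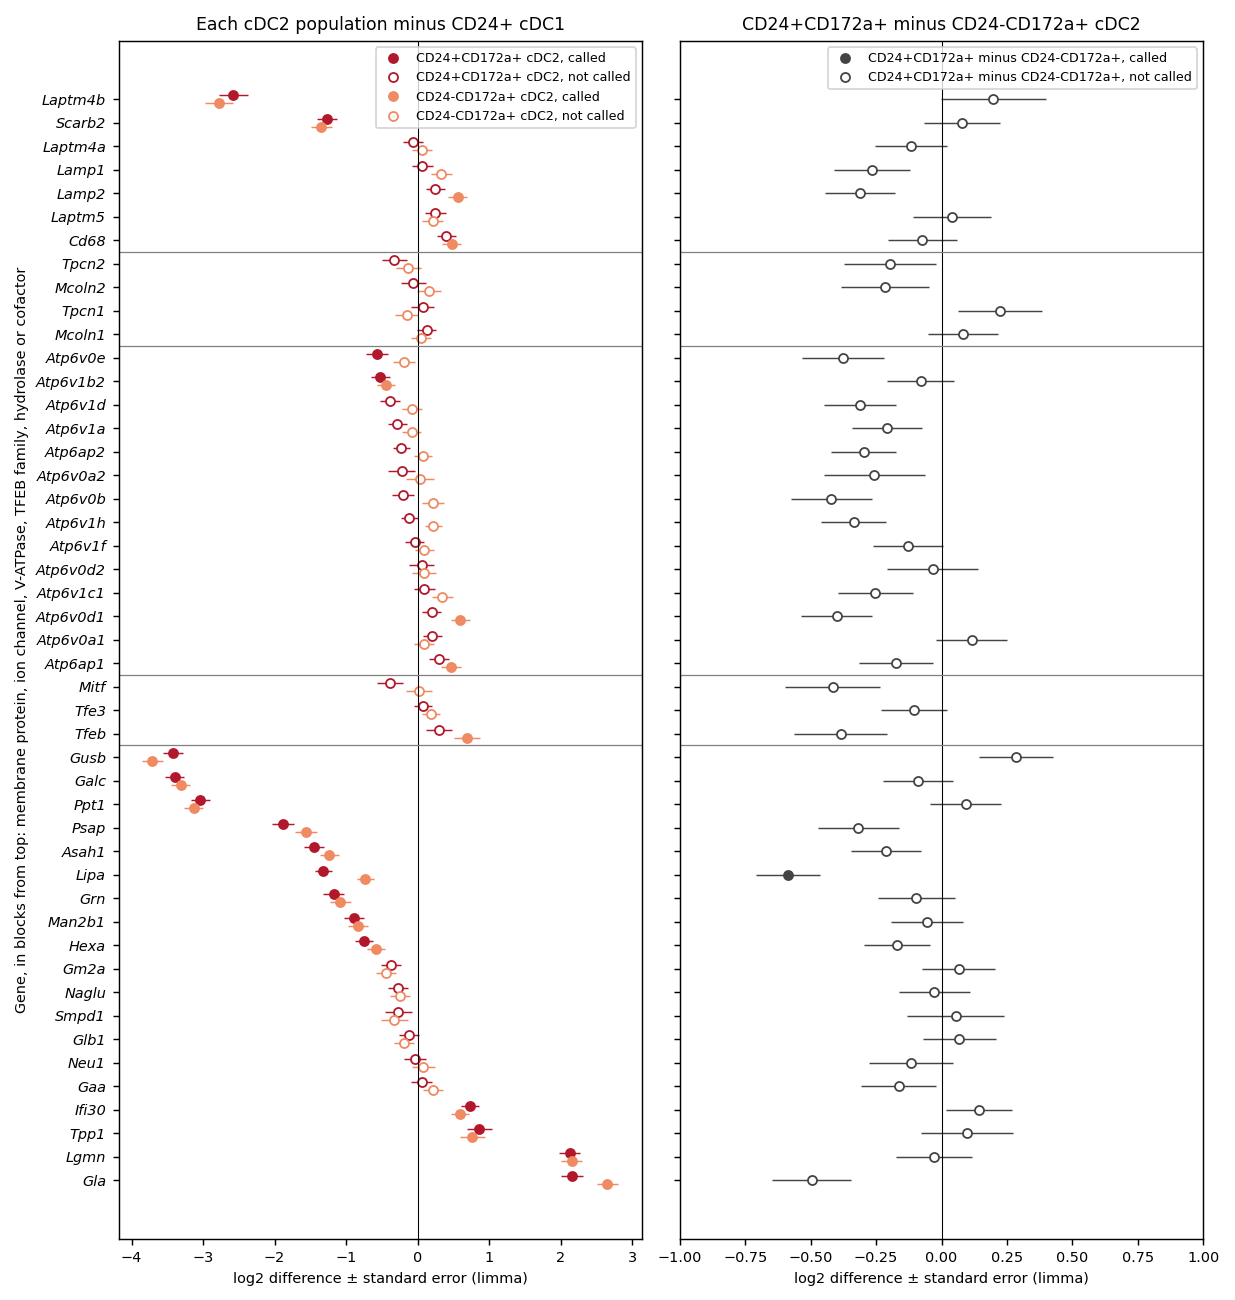
Log2 differences with their standard errors (limma, n = 2 arrays per population) for the 47 genes in blocks by role, each cDC2 population minus cDC1 on the left and CD24+CD172a+ minus CD24-CD172a+ cDC2 on the right, with filled points for called genes. The left panel spans -3.71 to 2.65 with the extremes among hydrolases, whereas in the right panel, drawn on a finer scale, 1 point (Lipa) is filled and 34 of 47 lie below 0.

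Of the transcription factors, Tfeb was called once. Tfeb, the best known driver of lysosomal genes, was at 5.37 and 5.94 in CD24+CD172a+ cDC2, at 6.01 and 6.08 in CD24-CD172a+ cDC2, and at 5.28 and 5.43 in cDC1. The CD24-CD172a+ arrays were above all others, while the CD24+CD172a+ arrays overlapped those of cDC1. CD24-CD172a+ cDC2 minus cDC1 was 0.69 ± 0.18 (adjusted p 0.0249), and this call was lost without any 1 of the 4 arrays compared. CD24+CD172a+ cDC2 minus cDC1 was 0.30 ± 0.18 (adjusted p 0.372), and the cDC2 populations differed by -0.39 ± 0.18 (adjusted p 0.369).

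Tfe3, a relative with overlapping targets, kept to a narrow range, at 6.84 and 6.92 in CD24+CD172a+ cDC2, at 7.03 and 6.94 in CD24-CD172a+ cDC2, and at 6.80 and 6.81 in cDC1, and was not called. Mitf, known from pigment cells and osteoclasts, was at 4.20 and 4.10 in CD24+CD172a+ cDC2, at 4.87 and 4.27 in CD24-CD172a+ cDC2, and at 4.58 and 4.52 in cDC1. It was not called, and its 2 CD24-CD172a+ arrays differed from each other more than the population means did. The second Mitf probe set was dimmer still, at 1.82 to 2.20 on all 6 arrays, and was not called.

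The hydrolases and cofactors held most of the calls. In each cDC2 population 4 of the 19 were called higher and 9 lower than in cDC1, which is 68.4% of them. Beside this stand 13.6% of all genes for CD24+CD172a+ cDC2 and 15.7% for CD24-CD172a+ cDC2, and 23.7% and 27.4% of genes brighter than the median. The median difference of the 19 was -0.38 for CD24+CD172a+ cDC2 and -0.44 for CD24-CD172a+ cDC2. The comparisons share the cDC1 arrays, and the values of each are given gene by gene.

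**Figure D4:**
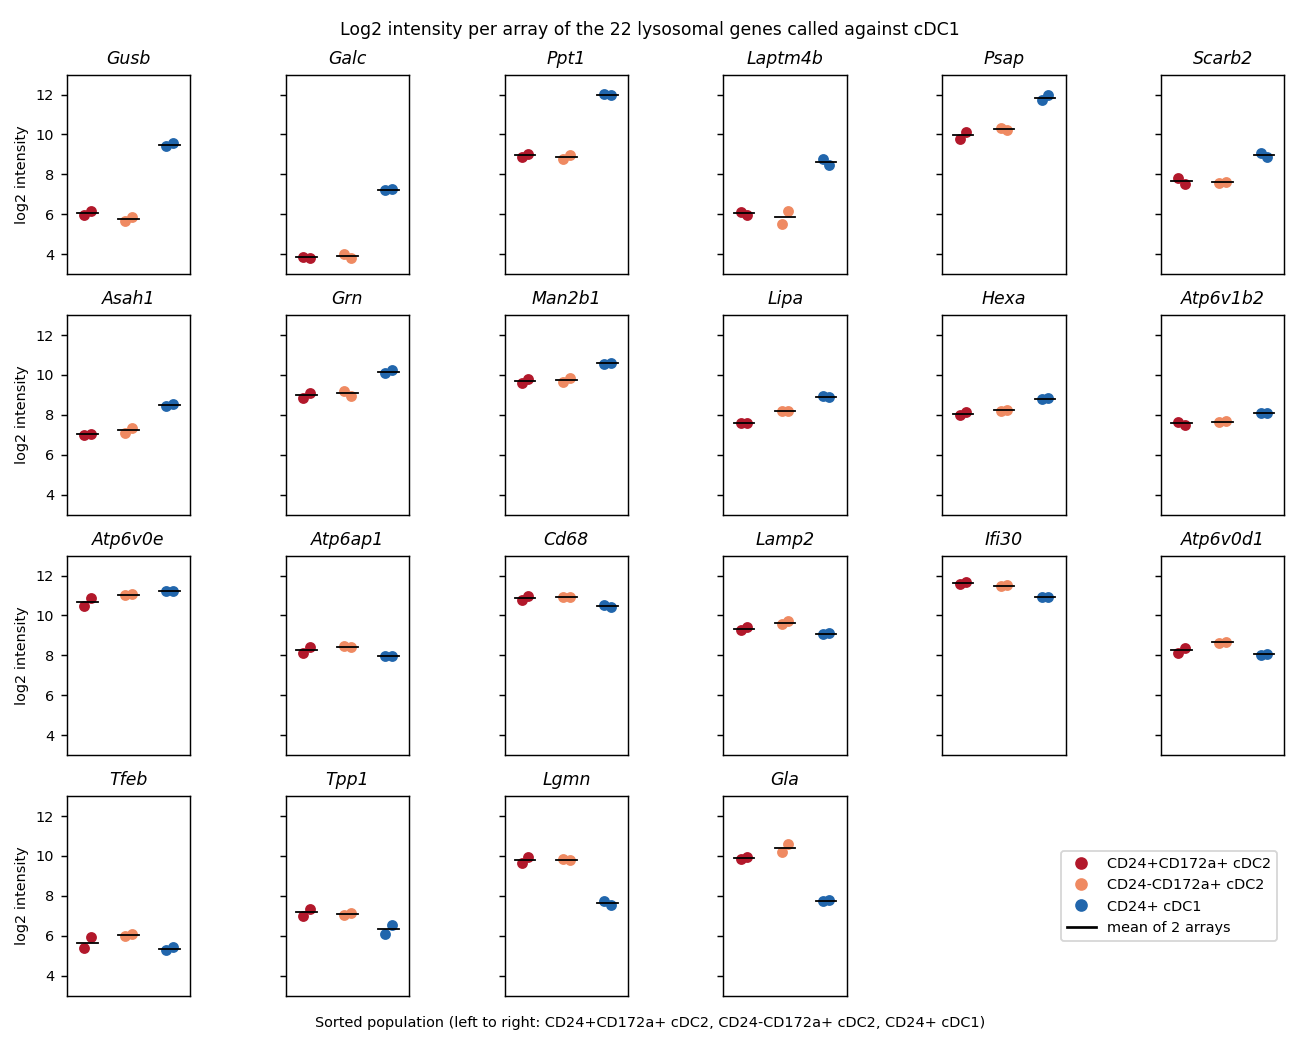
Log2 intensity of the 22 genes called against cDC1, 1 panel a gene from the lowest to the highest difference, with a point per array and a bar at the mean of 2 arrays. In the first panels (Gusb, Galc, Ppt1) both cDC2 populations lie more than 3 log2 units below cDC1, and in the last (Lgmn, Gla) more than 2 above.

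Gusb, Galc and Ppt1 had the largest differences of the 47 genes. Gusb, beta-glucuronidase, was at 5.98 and 6.16 in CD24+CD172a+ cDC2 and at 5.69 and 5.89 in CD24-CD172a+ cDC2, against 9.41 and 9.58 in cDC1. The cDC2 levels correspond to 0.0933 and 0.0765 times the cDC1 level in linear intensity (-3.42 ± 0.14, adjusted p 8.41e-08, and -3.71 ± 0.14, adjusted p 4.87e-08).

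Galc, the galactosylceramidase that removes galactose from galactosylceramide, was at 3.88 and 3.81 in CD24+CD172a+ cDC2 and at 4.04 and 3.83 in CD24-CD172a+ cDC2, against 7.20 and 7.28 in cDC1. The cDC2 arrays lay about the 25th percentile of all values, and whether the probe set was above background there was not examined. The differences were -3.40 ± 0.13 (adjusted p 5.56e-08) and -3.31 ± 0.13 (adjusted p 6.78e-08).

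Ppt1, a thioesterase that strips palmitate from proteins, was at 8.89 and 9.04 in CD24+CD172a+ cDC2 and at 8.77 and 8.97 in CD24-CD172a+ cDC2, against 12.0045 and 11.9953 in cDC1. The cDC2 levels were 0.122 and 0.114 times that of cDC1 in linear intensity (-3.04 ± 0.13, adjusted p 1.4e-07, and -3.13 ± 0.13, adjusted p 1.02e-07).

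Psap, Asah1 and Hexa, which serve sphingolipid breakdown, were called lower in both cDC2 populations. Psap, the precursor of the saposins that present lipids to the hydrolases, was at 9.80 and 10.13 in CD24+CD172a+ cDC2 and at 10.34 and 10.22 in CD24-CD172a+ cDC2, against 11.72 and 11.97 in cDC1 (-1.88 ± 0.15, adjusted p 1.29e-05, and -1.56 ± 0.15, adjusted p 5.34e-05). Asah1, acid ceramidase, was at 7.01 and 7.04 in CD24+CD172a+ cDC2 and at 7.12 and 7.36 in CD24-CD172a+ cDC2, against 8.42 and 8.52 in cDC1 (-1.45 ± 0.14, adjusted p 3.31e-05, and -1.24 ± 0.14, adjusted p 0.00011). Hexa, the alpha subunit of beta-hexosaminidase, was at 7.99 and 8.12 in CD24+CD172a+ cDC2 and at 8.20 and 8.26 in CD24-CD172a+ cDC2, against 8.80 and 8.83 in cDC1 (-0.76 ± 0.13, adjusted p 0.00209, and -0.59 ± 0.13, adjusted p 0.00925). Neither population overlapped cDC1 for any of these genes. The Hexa call for CD24-CD172a+ cDC2 was lost without its array 1 or without either cDC1 array.

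Gm2a, the activator that hands gangliosides to hexosaminidase, did not pass the test (-0.38 ± 0.14, adjusted p 0.117, and -0.44 ± 0.14, adjusted p 0.0585), although no cDC2 array reached the cDC1 arrays. Smpd1, acid sphingomyelinase, gave -0.27 ± 0.19 and -0.33 ± 0.19 and was not called.

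Progranulin, the acid lipase and the acid mannosidase were lower in cDC2 as well. Grn, the precursor of granulins and a partner of prosaposin in traffic to the lysosome, was at 8.87 and 9.11 in CD24+CD172a+ cDC2 and at 9.22 and 8.95 in CD24-CD172a+ cDC2, against 10.10 and 10.23 in cDC1 (-1.18 ± 0.15, adjusted p 0.000306, and -1.08 ± 0.15, adjusted p 0.000538). Man2b1, which trims mannose from glycoproteins, was at 9.57 and 9.80 in CD24+CD172a+ cDC2 and at 9.64 and 9.84 in CD24-CD172a+ cDC2, against 10.57 and 10.59 in cDC1 (-0.89 ± 0.14, adjusted p 0.0013, and -0.84 ± 0.14, adjusted p 0.00185). The cDC2 arrays of both genes all lay below the cDC1 arrays.

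Lipa, which hydrolyses cholesteryl esters and triglycerides, was the 1 gene called in all 3 comparisons. It was at 7.60 and 7.59 in CD24+CD172a+ cDC2, at 8.17 and 8.19 in CD24-CD172a+ cDC2, and at 8.93 and 8.90 in cDC1. The 3 populations formed 3 separate steps. CD24+CD172a+ cDC2 minus cDC1 was -1.32 ± 0.12 (adjusted p 3.16e-05) and CD24-CD172a+ cDC2 minus cDC1 was -0.73 ± 0.12 (adjusted p 0.002).

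The 4 genes that were higher in both cDC2 populations are Gla, Lgmn, Ifi30 and Tpp1. Gla, the alpha-galactosidase A that takes the terminal galactose from globo-series lipids, was at 9.85 and 9.97 in CD24+CD172a+ cDC2 and at 10.22 and 10.60 in CD24-CD172a+ cDC2, against 7.74 and 7.77 in cDC1. This is 4.46 and 6.28 times the cDC1 level (2.16 ± 0.15, adjusted p 3.97e-06, and 2.65 ± 0.15, adjusted p 8.3e-07). The Gla window holds the pair of longer E-boxes printed above, and a link between boxes and levels was not tested.

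Lgmn, legumain or asparaginyl endopeptidase, which cuts antigens and activates other lysosomal proteases, was at 9.63 and 9.93 in CD24+CD172a+ cDC2 and at 9.84 and 9.77 in CD24-CD172a+ cDC2, against 7.75 and 7.57 in cDC1. The cDC2 levels were 4.35 and 4.44 times that of cDC1 (2.12 ± 0.14, adjusted p 3.25e-06, and 2.15 ± 0.14, adjusted p 2.88e-06). Ifi30, the thiol reductase GILT that opens disulfide bonds of antigens, was at 11.59 and 11.69 in CD24+CD172a+ cDC2 and at 11.46 and 11.53 in CD24-CD172a+ cDC2, against 10.91 on both cDC1 arrays (0.73 ± 0.13, adjusted p 0.00257, and 0.58 ± 0.13, adjusted p 0.00909). Both genes act on proteins bound for MHC class II, and for both all 4 cDC2 arrays lay above cDC1. Without either cDC1 array the Ifi30 call for CD24-CD172a+ cDC2 was lost.

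Tpp1, a peptidase that removes tripeptides from protein ends, was at 7.01 and 7.35 in CD24+CD172a+ cDC2 and at 7.02 and 7.14 in CD24-CD172a+ cDC2, against 6.10 and 6.54 in cDC1 (0.86 ± 0.17, adjusted p 0.00725, and 0.76 ± 0.17, adjusted p 0.0132). The groups did not overlap, but the calls were lost without cDC1 array 1 and without array 2 of the cDC2 population compared. The remaining hydrolases were not called: Gaa (acid alpha-glucosidase), Glb1 (beta-galactosidase), Neu1 (sialidase) and Naglu (N-acetylglucosaminidase of heparan sulfate) had differences from cDC1 between -0.28 and 0.22.

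Between the cDC2 populations the 47 genes were close. In CD24+CD172a+ cDC2, 0 were called higher and 1 (Lipa) lower than in CD24-CD172a+ cDC2, which is 2.13% of them. Of all genes 1.46% were called in this comparison, 0.808% higher and 0.652% lower, and of genes brighter than the median 2.46%. Lipa was at 7.60 and 7.59 in CD24+CD172a+ cDC2, against 8.17 and 8.19 in CD24-CD172a+ cDC2 (-0.59 ± 0.12, limma adjusted p 0.0486). This lies just under the threshold, and the call was lost without any 1 of the 6 arrays and in 5 further settings, while the difference ran from -0.67 to -0.57.

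The direction of the differences was mostly downward. In CD24+CD172a+ cDC2, 34 of the 47 genes were lower and 13 higher than in CD24-CD172a+ cDC2 (median -0.12, all genes -0.01). An unadjusted p under 0.05 was reached by 10 genes, all of them lower. The shares of all genes that were lower, or that reached this p, were not counted. The arrays did not overlap for 24 of 47 genes, 20 lower and 4 higher, beside 44.2% of all genes.

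Of the 14 pump genes of the group, 13 had a negative difference (median -0.25), 9 were lower without overlap and 1 (Atp6v0a1) was higher without overlap. Of all genes, 44.2% did not overlap in this comparison in either direction, and the share with a negative difference was not counted. Atp6v0a2 is among the 13 by its brighter probe set (-0.257). Its dimmer probe set gave 0.225 here, the opposite sign, and neither was called. Of 18 other pump subunits and assembly factors, 8 had a positive and 10 a negative difference (median -0.04). An unadjusted limma p under 0.05 was reached by 4 of these 18. Ccdc115 (-0.66), Atp6v1e1 (-0.31) and Tcirg1 (-0.30) were lower, and Tmem199 (0.39) was higher. By limma 0 of the 14 were called, and 6 had an unadjusted p under 0.05. The lowest were Atp6v0b, at 8.95 and 9.36 in CD24+CD172a+ cDC2 against 9.61 and 9.53 in CD24-CD172a+ cDC2 (-0.42 ± 0.16, adjusted p 0.255), and Atp6v0d1 (-0.40 ± 0.13, adjusted p 0.202). CD24+CD172a+ array 1 was the lowest of the 4 for both of these genes.

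Gla had the next lowest adjusted p after Lipa, at -0.50 ± 0.15 (adjusted p 0.162), with both CD24+CD172a+ arrays below both CD24-CD172a+ arrays. Gusb was the gene with the largest positive difference, 0.29 ± 0.14 (adjusted p 0.398), and also without overlap. All 3 TFEB family genes were lower without overlap and not called, beside 44.2% of all genes without overlap in either direction. The second, dimmer Mitf probe set gave 0.098, with overlapping arrays.

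Markers of other cell types differed in both directions in the same comparison. Of 15 genes listed for red pulp and other macrophages, 6 were lower and 0 higher in CD24+CD172a+ than in CD24-CD172a+ cDC2: Spic (-1.56), Treml4 (-1.23), Adgre1 (-1.12), C1qb (-0.93), C1qa (-0.88) and C1qc (-0.82). The summed linear intensity of the 15 was 705 to 787 in CD24+CD172a+ cDC2, 1370 to 1511 in CD24-CD172a+ cDC2 and 1520 to 1847 in cDC1. Of the list, Mertk and Cd163 alone were below the 25th percentile in all 3 populations. Of 10 monocyte genes, Lyz1 (-2.05) and Lyz2 (-1.09) were lower and 0 higher, with sums of 3851 to 4747 in CD24+CD172a+ cDC2, 6564 to 6979 in CD24-CD172a+ cDC2 and 6221 to 6368 in cDC1. An unadjusted p under 0.05 was reached by 10 of the 15 macrophage genes and 3 of the 10 monocyte genes in either direction.

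Other lists held genes that were higher in CD24+CD172a+ than in CD24-CD172a+ cDC2. Of 9 plasmacytoid dendritic cell genes, Siglech (1.08) and Tcf4 (0.91) were higher and 0 lower, with a list median of 0.35 and sums of 863 to 894 in CD24+CD172a+ cDC2, 662 to 668 in CD24-CD172a+ cDC2 and 852 to 907 in cDC1. Of 10 neutrophil genes, S100a8 (1.92) and S100a9 (1.88) were higher and 0 lower, with sums of 344 to 374, 251 to 274 and 223 to 234 in the same order. Of that list, Ly6g alone was below the 25th percentile in all 3 populations. An unadjusted p under 0.05 was reached by 5 of the 9 and 4 of the 10. Of 10 cDC1 markers, limma called 1 higher and 2 lower in CD24+CD172a+ than in CD24-CD172a+ cDC2, with differences from -1.03 to 2.11. Of 10 cDC2 markers it called 0 higher and 1 lower, with differences from -1.39 to 0.49. In each of these 2 lists, 6 genes had an unadjusted p under 0.05. By limma 0 genes were called between the cDC2 populations in the lists for B cells, T cells, NK cells, erythroid cells and all conventional dendritic cells, where 1, 1, 1, 0 and 2 had an unadjusted p under 0.05. Several of the genes in these lists are also known from dendritic cells. Their part in the lysosomal differences was not tested.

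Against cDC1, the macrophage list held 2 genes higher and 4 lower in CD24+CD172a+ cDC2 and 5 higher and 3 lower in CD24-CD172a+ cDC2. Its extremes were Adgre1 (3.60 and 4.72) and Treml4 (-3.53 and -2.30). The monocyte list held 4 higher and 2 lower, and 3 higher and 0 lower, with Csf1r at 3.77 and 3.59. Of all genes, 13.6% and 15.7% were called in these comparisons. The plasmacytoid list held 2 higher and 2 lower, and 1 higher and 4 lower, and the neutrophil list 4 higher and 0 lower, and 2 higher and 0 lower. The B cell list held 2 higher and 1 lower, and 1 higher and 1 lower. The T cell list held 1 higher and 0 lower, and 2 higher and 0 lower. The NK cell list held 0 calls and 1 higher, and the list for all conventional dendritic cells 1 higher, and 1 higher and 1 lower. Their part in the differences from cDC1 was not tested either.

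Further genes of the lysosomal system were counted in 7 lists, to be read against the 13.6% and 15.7% of all genes, and the 23.7% and 27.4% of genes brighter than the median, called in the same comparisons. In each list the counts are of limma calls, and the pair of values after a gene gives CD24+CD172a+ and then CD24-CD172a+ cDC2 minus cDC1. Of 24 other hydrolases and activators, 4 were called higher and 6 lower in each cDC2 population than in cDC1 (41.7%). Naaa (-4.53 and -5.05), an acid amidase that is also a cDC1 marker, Fuca1 (-2.12 and -2.27), the fucosidase, and Arsb (-1.94 and -2.51), a sulfatase, were lower. Ctsa (1.66 and 1.59), the protective protein of Glb1 and Neu1, and Acp5 (1.22 and 2.47), tartrate-resistant acid phosphatase, were higher. Acp5 was also called lower in CD24+CD172a+ than in CD24-CD172a+ cDC2 (-1.24, adjusted p 0.00976), the 1 call of the list between them, which was lost without CD24+CD172a+ cDC2 array 1 or CD24-CD172a+ cDC2 array 2. The median of the list was -0.23 and -0.09.

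Of 16 cathepsins and inhibitors, 6 were higher and 3 lower in CD24+CD172a+ cDC2, and 7 higher and 3 lower in CD24-CD172a+ cDC2 (56.2% and 62.5% called, medians 0.29 and 0.34). The 9 calls for CD24+CD172a+ cDC2 became 3 without cDC1 array 1 and 2 without its own array 2, and the 10 for CD24-CD172a+ cDC2 became 6 without cDC1 array 1. Ctsd (1.03 and 1.18) and Ctsl (0.63 and 1.28), both lysosomal proteases, were higher. Ctse (-1.21 and -1.34) and the inhibitor Cst3 (-1.25 and -1.12) were lower. Ctsl was called lower in CD24+CD172a+ than in CD24-CD172a+ cDC2 (-0.66, adjusted p 0.0463), and the list held 0 calls between them without any 1 of the 6 arrays.

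Of 27 other membrane and transporter genes, 7 were higher and 2 lower in each cDC2 population than in cDC1 (33.3% called, medians 0.12 and 0.19), and the 9 calls for CD24-CD172a+ cDC2 became 5 without cDC1 array 2. The cholesterol exporters divided, with Npc1 higher (1.28 and 0.64) and its soluble partner Npc2 lower (-1.17 and -1.16). The peptide and histidine transporters Slc15a3 (0.85 and 1.27) and Slc15a4 (0.87 and 1.16) were both higher. Cd63, a tetraspanin of late endosomes, was called lower in CD24+CD172a+ than in CD24-CD172a+ cDC2 (-0.71, adjusted p 0.0407), and here too the list held 0 such calls without any 1 of the 6 arrays. Of 18 other pump subunits and assembly factors, 1 was higher and 2 lower in CD24+CD172a+ cDC2 and 2 higher and 1 lower in CD24-CD172a+ cDC2 (medians -0.08 and -0.02), with Rogdi (1.03 and 0.73) the highest. This is 16.7% in each, near the share of all genes, and leaving out 1 array gave as few as 1 call without CD24+CD172a+ cDC2 array 1, and for CD24-CD172a+ cDC2 1 without its array 1 and 0 without its array 2 or cDC1 array 1.

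Genes that deliver enzymes to the lysosome or sense nutrients there were lower in cDC2 where they were called, with 1 exception, Hps1 (0.61 in CD24+CD172a+ cDC2). The shares called in both lists were near the 23.7% and 27.4% of genes brighter than the median. Of 27 sorting genes, 1 was higher and 6 lower in CD24+CD172a+ cDC2, and 0 higher and 8 lower in CD24-CD172a+ cDC2 (25.9% and 29.6% called, medians -0.21 and -0.22). The 7 calls became 4 without either cDC1 array, and the 8 became 5 without cDC1 array 1. The lowest was Igf2r (-2.16 and -2.29), the receptor that carries mannose 6-phosphate tagged hydrolases, followed by the adaptor subunits Ap1b1 (-1.29 and -1.16) and Ap3d1 (-1.15 and -1.19). Of 24 nutrient-sensing genes, 0 were higher and 6 and 7 lower (25% and 29.2% called, medians -0.19 and -0.29; 9 and 14 had an unadjusted p under 0.05 in either direction), and the 7 became 3 without cDC1 array 1. The lower genes include Fnip2 (-2.88 and -2.65), a folliculin partner, Rraga (-0.84 and -0.65) and Rragc (-0.79 and -0.71), GTPases that bring mTORC1 and TFEB to the lysosome. Of 24 autophagy genes, 5 were higher and 2 lower, and 3 higher and 1 lower (29.2% and 16.7% called, the second near the share of all genes; medians 0.13 and 0.01), among them Gabarapl1 (0.78 and 0.59) and Atg3 (-0.66 and -0.62). Leaving out any 1 of the 4 arrays compared gave 2 to 4 autophagy calls for CD24+CD172a+ cDC2, and the 4 for CD24-CD172a+ cDC2 became 2 without cDC1 array 1 and 1 without cDC1 array 2 or its own array 1. In the sorting, nutrient-sensing, autophagy and pump lists, 0 genes were called between the cDC2 populations, and 2, 5, 3 and 4 had an unadjusted p under 0.05.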

How the data were processed

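The authors deposited 1 column of linear RMA intensity for each of 6 arrays. Per the labels' protocols, total RNA was column-extracted and biotinylated cDNA made with the Affymetrix WT Pico kit, and per the submitters' processing notes Affymetrix Expression Console with RMA was used, versions not stated. The genome build is not given in the sources used here; signal over background was not examined, since no scanner file or detection call was used here. With 2 arrays a population, their number limits precision.

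Of 28853 probe sets, 21789 had 1 symbol, 1621 several and 5443 none; the brightest single-symbol probe set was kept for each of 19938 genes. Gene IDs of 21698 probe sets were found in a GRCm38.p6 gene table, which changed 0 symbols. The log2 values of all 6 arrays were fitted together in limma 3.58.1 (R 4.3.3; lmFit and eBayes, 3 residual degrees of freedom), with Benjamini-Hochberg adjustment over all genes and a threshold of 0.05. Standard errors and p-values therefore rest on a spread pooled over the 6 arrays. That spread is drawn towards a value estimated from all genes, which counts for 7.31 prior degrees of freedom. Figures used Python 3.11.15 and matplotlib 3.10.9. The procedure was tested on simulated data with independent noise on each array. That test cannot show whether the real replicate arrays are independent.

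The genes and lists were chosen with earlier results of these data known. The rule for named genes gave per-array values for up to 12 called genes per comparison with the largest differences, plus Tfeb, Tfe3, Mitf, Lamp1, Lamp2, Cd68, Ifi30, Psap and Grn. From related and marker lists it gave up to 4 called genes per comparison, and otherwise the 2 with the smallest p; a selection of these is printed. Per-array values of Hexa and of pump genes, and pairs of values for list genes among the leading 4 in 1 comparison only, were added after their values were seen.

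Alternatives were filters at the 25th percentile and at the median of genes, averaged probe sets, every probe set tested, array centring, cyclic loess, quantile normalisation, array weights, a robust variance with an intensity trend, only the compared populations, a replicate block, a test against a 1.5-fold change, and leaving out each array.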

Additional observations from a re-analysis of the deposited data

How the results depend on the processing

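For the 47 genes, no called difference changed sign between settings. The single gene called lower in CD24+CD172a+ than in CD24-CD172a+ cDC2 became 0 with every probe set tested, with arrays centred, with array weights, with only the compared populations, with a test against a 1.5-fold change, and without any 1 array (range 0 to 0). That count stayed at 1 in the other 7 settings. Against cDC1, the test against a 1.5-fold change gave 2 higher (4 in the fit reported) for CD24+CD172a+ cDC2, and 2 higher (9) and 7 lower (12) for CD24-CD172a+ cDC2. Leaving out each array gave 2 to 9 higher for CD24-CD172a+ cDC2, with 2 without cDC1 array 1, 3 without cDC1 array 2 and 3 without CD24-CD172a+ cDC2 array 2, and 10 to 11 lower. For CD24+CD172a+ cDC2 it gave 3 to 4 higher and 11 to 13 lower. The causes were not tested.

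Of the calls, 11 of 17 for CD24+CD172a+ cDC2 and 9 of 21 for CD24-CD172a+ cDC2 against cDC1 held in every setting in which the gene was tested. Common to both are Laptm4b, Scarb2, Gla, Gusb, Psap, Asah1, Ppt1, Lgmn and Galc. Calls over all genes between the cDC2 populations ran from 2 to 271 higher (161 reported) and from 6 to 193 lower (130 reported), the lowest with the test against a 1.5-fold change. Against cDC1 that test gave 363 of 1418 higher and 352 of 1300 lower for CD24+CD172a+ cDC2, and 383 of 1361 and 345 of 1776 for CD24-CD172a+ cDC2. It also gave the lowest counts in the related lists, for CD24+CD172a+ and then CD24-CD172a+ cDC2: hydrolases 4 of 10 and 5 of 10, cathepsins 1 of 9 and 3 of 10, membrane genes 2 of 9 and 3 of 9, sorting 3 of 7 and 3 of 8, nutrient sensing 1 of 6 and 1 of 7 (12 for genes brighter than the median), autophagy 0 of 7 and 0 of 4, and pump 0 of 3 and 0 of 3. Between the cDC2 populations the single calls among hydrolases, cathepsins and membrane genes ran from 0 to 2, 0 to 3 and 0 to 2. Rescaling the arrays shifted the median of all genes by at most 0.02.

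The same replicate number did not mark a shared source in the labels, and deviations of same-numbered arrays correlated at 0.08, 0.08 and 0.02. The replicate block left the counts of these 47 genes as reported: 0 higher and 1 lower between the cDC2 populations, 4 and 13 for CD24+CD172a+ cDC2 and 9 and 12 for CD24-CD172a+ cDC2 against cDC1.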
